A study of Mus musculus with 6 samples.

Results

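Small structural noncoding RNA genes encode short RNAs that are not translated and that work inside RNA-protein particles. In the deposited table, 173 of 14774 genes were annotated as snoRNA, snRNA, scaRNA, misc_RNA or ribozyme, or were one of Rn7s1, Rn7s2, Rn7sk, Rmrp and Rpph1, with mitochondrial symbols left out. They comprised 28 Snord genes, 19 Snora genes, 56 snoRNA models known only by a number, 5 genes of U3 snoRNA and 10 scaRNAs. Others were 37 spliceosomal snRNA genes, 2 genes of 7SL RNA, 1 of 7SK RNA and the RNase P and RNase MRP RNAs. The last 13, other misc_RNA genes, include genes similar to 7SL or 7SK RNA as well as Y and vault RNAs. Total RNA of untreated MA-10 cells, a line of tumor Leydig cells from the mouse with wild-type Star, was compared with that of untreated STARKO1 cells, with 3 libraries for each. STARKO1 is 1 clone grown from a single MA-10 cell after CRISPR/Cas9 cutting in Star exon 2, so the loss of Star and the history of the clone cannot be told apart. Nothing in the labels says that the 3 libraries of a line came from separate cultures, so p-values measure the spread between these libraries, which may be technical.

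Each class has its own work in the cell. Box C/D snoRNAs (Snord) guide 2′-O-methylation and box H/ACA snoRNAs (Snora) guide pseudouridylation of ribosomal RNA, and most are cut from introns of host genes, many of which encode ribosomal proteins or noncoding Snhg transcripts. The scaRNAs guide the same modifications on spliceosomal snRNAs in Cajal bodies, whereas U3 and the U17 (Snora73) RNAs act in cleavage of the ribosomal RNA precursor. U1 and U2 snRNAs recognize the 5′ splice site and the branch site of introns. 7SL RNA is the scaffold of the signal recognition particle, 7SK RNA holds the elongation factor P-TEFb inactive, RNase P trims tRNA precursors, and RNase MRP cleaves ribosomal RNA precursors.

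U1 and U2 RNA are shown because the genes called with all libraries are copies or variants of them. Their sequences and those of the snoRNAs were taken from the GENCODE M21 transcripts on GRCm38 and are written 5′ to 3′ in DNA letters. In U1 RNA (Rnu1a1, chr11:87422867-87423030, plus strand), capitals mark ACTTACCTG, the bases that pair with the 5′ splice site. In U2 RNA (Rnu2-10, chr11:101658238-101658428, plus strand), capitals mark GTAGTA, the bases that pair with the branch site. Of 12441 GENCODE transcripts of 60 to 350 bases that are not snoRNA or scaRNA, 0.498% held the first run and 1.88% the second, on the strand of the transcript. Only snoRNA and scaRNA were left out of this set, so U1 and U2 transcripts can be among those that held the runs.
Rnu1a1: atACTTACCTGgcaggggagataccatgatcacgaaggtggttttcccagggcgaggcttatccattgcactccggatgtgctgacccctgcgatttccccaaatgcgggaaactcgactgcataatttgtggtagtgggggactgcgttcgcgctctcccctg
Rnu2-10: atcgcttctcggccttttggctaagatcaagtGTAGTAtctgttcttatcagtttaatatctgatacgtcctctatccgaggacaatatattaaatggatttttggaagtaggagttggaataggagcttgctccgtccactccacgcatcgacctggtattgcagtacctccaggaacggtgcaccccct

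Box C/D and H/ACA snoRNAs are described separately below, so examples of both are printed. The capitals mark the boxes by which their proteins recognize them. Snord15b (chr7:99479563-99479707, minus strand), Snord87 (chr1:9942463-9942549, minus strand) and Snord82 (chr1:86356261-86356330, minus strand) carry a C box TGATGA within the first 25 bases and a D box CTGA within the last 18. Snora16a (chr4:132309464-132309600, plus strand), Snora73b (chr4:132352322-132352526, minus strand) and Gm26448 (chr9:120129351-120129553, plus strand) carry ACA starting 5 to 7 bases from the 3′ end. Searched on the strand of the transcript, the C and D box pair was present in 20.1% of 1551 snoRNA and scaRNA transcripts of GENCODE and in 0.113% of the 12441 other transcripts of 60 to 350 bases. The ACA was present in 44.5% and 5.26%, respectively.
Snord15b: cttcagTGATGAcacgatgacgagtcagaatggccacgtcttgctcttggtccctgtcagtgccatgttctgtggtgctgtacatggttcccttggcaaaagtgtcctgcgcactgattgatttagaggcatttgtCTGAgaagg
Snord87: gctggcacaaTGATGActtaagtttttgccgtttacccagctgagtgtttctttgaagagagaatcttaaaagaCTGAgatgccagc
Snord82: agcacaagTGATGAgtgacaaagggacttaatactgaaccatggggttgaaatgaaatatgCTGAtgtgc
Snora16a: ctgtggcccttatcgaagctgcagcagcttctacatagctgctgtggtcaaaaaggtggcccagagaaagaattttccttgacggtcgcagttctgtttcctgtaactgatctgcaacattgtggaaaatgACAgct
Snora73b: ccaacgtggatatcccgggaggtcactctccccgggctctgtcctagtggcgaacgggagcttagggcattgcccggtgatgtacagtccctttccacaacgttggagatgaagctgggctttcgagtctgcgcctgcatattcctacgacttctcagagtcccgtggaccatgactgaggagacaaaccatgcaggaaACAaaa
Gm26448: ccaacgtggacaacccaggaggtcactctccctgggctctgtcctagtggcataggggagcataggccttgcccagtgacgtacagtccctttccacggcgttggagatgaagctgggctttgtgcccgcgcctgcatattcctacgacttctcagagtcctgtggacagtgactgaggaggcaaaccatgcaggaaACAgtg

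Before the results, the libraries need a description. Estimated counts per library summed to between 14114351 and 19530062, and a gene's CPM is its count times 1e6 over the library size after TMM scaling, which corrects for differences in composition. Star was at 60.9, 109 and 61.3 CPM in the MA-10 libraries and at 2.06, 2.71 and 2.02 CPM in STARKO1 (log2 fold change −5.09, SE 0.33, adjusted p = 0.00121, edgeR quasi-likelihood test), and 9 of 9 Leydig cell markers had at least 10 counts in every library. Summed, they were at 2083 to 2658 CPM in MA-10 and 1720 to 1796 CPM in STARKO1. Of 3 endothelial markers 2 were listed, at a sum of 26.4 to 41.4 CPM in MA-10 and 118 to 123.9 CPM in STARKO1, nearly all of it from Cdh5. Of 5 Sertoli cell markers 1 was listed, at 314 to 503 CPM in MA-10 and 547 to 568 CPM in STARKO1. Sums of the germ cell, macrophage and peritubular markers overlapped between the lines and were at most 9.84 CPM. The part of any of these differences in the small RNA values was not tested. For the small RNAs, however, MA-10 replicate 1 stood apart from the other MA-10 libraries. Its log2 CPM lay nearer to the STARKO1 mean than to either other MA-10 library in 79 of the 95 small RNA genes that passed the filter on low counts, or 83.2%, against 60.4% of all 11939 genes tested. The same measure was 7.37% for MA-10 replicate 2 and 8.42% for replicate 3, against 16.4% and 19.1% of all genes. Values without MA-10 replicate 1 are therefore given beside those from all libraries for the classes and for the genes on which a result turns. That library was singled out by these same small RNA values. Counts of called genes and adjusted p-values without it are thus descriptions, not independent tests. The libraries also differed in other RNA, with ribosomal protein genes at 4.62%, 8.66% and 7.82% of counts in MA-10 and 4.24% to 4.43% in STARKO1, and the abundant transcript Gm26917 at 8.71%, 0.571% and 1.63% against 4.97% to 6.03%. Whether these differences play a part in the small RNA values was not tested.

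With all libraries, edgeR called few small RNA genes. Those it called were copies or variants of U1 and U2 snRNA, and neither RNA passed when its similar genes were summed. Of 95 genes tested, 3 were higher in STARKO1 at an adjusted p below 0.05 and none was lower, or 3.16%, while 9.04% of all genes tested passed (4.30% higher and 4.74% lower). At an unadjusted p below 0.05 there were 14 higher and 36 lower, or 52.6%, against 37.6% of all genes (15% higher and 22.7% lower). DESeq2, an alternative tool, called 11 higher and 36 lower of the 140 genes given an adjusted p, against 24.9% of all genes. The values of the cell lines did not overlap for 31 genes (21 higher and 10 lower in STARKO1), or 32.6%, against 42.5% of all genes (21.5% higher and 21% lower). Without MA-10 replicate 1, 94 of 110 genes tested were called, 33 higher and 61 lower, or 85.5%, against 65.7% of all genes (34.0% higher and 31.7% lower). Without any one of the other 5 libraries, none was called, with 18 to 29 genes at an unadjusted p below 0.05, while 4.19% (without MA-10 replicate 2), 1.49% (without MA-10 replicate 3), 0.73%, 1.11% and 0.76% (without STARKO1 replicates 1, 2 and 3) of all genes were called. In bulk RNA, fewer cells with an RNA and less of it per cell cannot be told apart. The 95 genes that passed the filter were 54.9% of the 173, and the other 78 are described only by their counts.

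**Figure D1:**
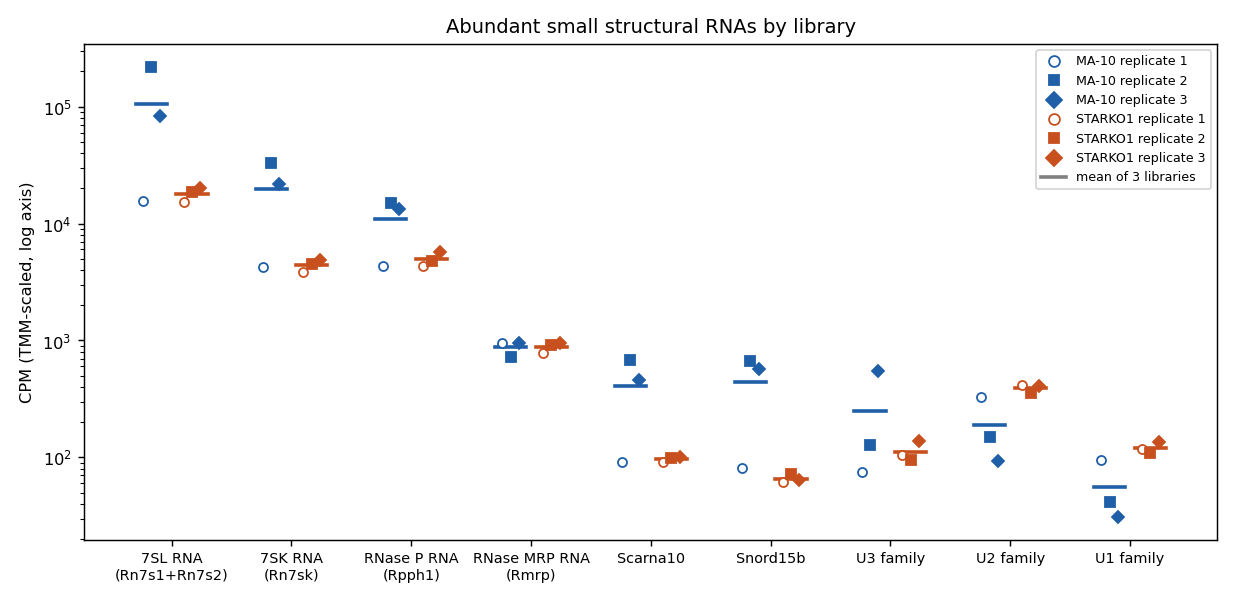
CPM (log axis) of abundant small RNAs in each of the 3 MA-10 libraries (blue) and 3 STARKO1 libraries (orange), with open circles for replicate 1 and bars for the mean of 3 libraries. The U1, U2 and U3 families are sums over similar genes. MA-10 replicate 1 is nearer to the STARKO1 mean than to either other MA-10 library for every RNA shown except Rmrp, for which all 6 libraries lie between 724 and 956 CPM.

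7SL RNA took the largest share of counts. Rn7s1 was at 9661, 111124 and 41638 CPM in MA-10 replicates 1, 2 and 3 and at 9608, 11142 and 10501 CPM in STARKO1, and its copy Rn7s2, whose transcript is the same in all 300 bases, at 6010, 109196 and 40712 against 5680, 7503 and 9718. MA-10 replicates 2 and 3 were far above the other 4 libraries, and replicate 1 lay among or beside the knockout libraries. The log2 fold change was −2.38 for Rn7s1 (SE 0.84, adjusted p = 0.0949) and −2.77 for Rn7s2 (SE 0.97, adjusted p = 0.0930), neither past the threshold by edgeR. Without MA-10 replicate 1 both passed, at −2.77 (adjusted p = 0.000265) and −3.19 (adjusted p = 0.000238) in edgeR. Since both transcripts have the same sequence, how the reads were divided between them is uncertain, and their sum is the better measure. Summed with 5 other genes at least 75% identical to 7SL RNA, the values were 15675, 220339 and 82360 CPM in MA-10 and 15293, 18651 and 20225 CPM in STARKO1, a log2 fold change of −2.55 (SE 0.91, adjusted p = 0.0964, edgeR).

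7SK RNA and RNase P RNA were also highest in MA-10 replicates 2 and 3, with smaller differences. Rn7sk was at 4255, 33108 and 21614 CPM in MA-10 and 3820, 4494 and 4897 CPM in STARKO1 (log2 fold change −2.16, SE 0.71, adjusted p = 0.0835, edgeR). Rpph1, the RNase P RNA, was at 4360, 14946 and 13300 CPM against 4374, 4774 and 5671 CPM (log2 fold change −1.14, SE 0.50, adjusted p = 0.144, edgeR). For both, replicates 2 and 3 of MA-10 lay above all other libraries, and without replicate 1 both fell, by 2.54 (adjusted p = 3.66e-05) and 1.42 (adjusted p = 0.00016) on the log2 scale in edgeR.

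RNase MRP RNA, the close relative of RNase P RNA, did not follow them. Rmrp was at 951, 724 and 945 CPM in MA-10 and at 789, 908 and 956 CPM in STARKO1, and the groups overlapped throughout. Its log2 fold change was 0.02 (SE 0.22, adjusted p = 0.956, edgeR) and 0.17 without MA-10 replicate 1 (adjusted p = 0.390, edgeR). Its sign turned to −0.10 without MA-10 replicate 2 and to −0.04 without STARKO1 replicate 3.

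As a share of all counts, the small RNA genes took 3.04%, 17.8% and 9.74% in MA-10 and 3.03%, 3.53% and 3.88% in STARKO1. The difference of the means was −6.72 percentage points (exact two-sided permutation test, p = 0.3, where 3 against 3 libraries cannot give less than 0.1), and it was −2.91 points without MA-10 replicate 2 and −10.3 points without replicate 1. Without 7SL RNA the shares were 1.23%, 3.40% and 3.11% against 1.21%, 1.33% and 1.5% (exact permutation test, p = 0.3). Without 7SL RNA, 7SK RNA and Rpph1, the remaining 169 genes took 0.237%, 0.256% and 0.300% in MA-10 and 0.237%, 0.243% and 0.265% in STARKO1 (exact permutation test, p = 0.7). Within this small remainder, snRNA and snoRNA genes went in opposite directions between the libraries. The 37 spliceosomal snRNA genes took 0.0503%, 0.0125% and 0.0101% against 0.0652%, 0.0562% and 0.0658% (exact permutation test, p = 0.1, the smallest possible). The 118 snoRNA and scaRNA genes took 0.0736%, 0.189% and 0.209% against 0.0736%, 0.0768% and 0.0833% (exact permutation test, p = 0.4).

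**Figure D2:**
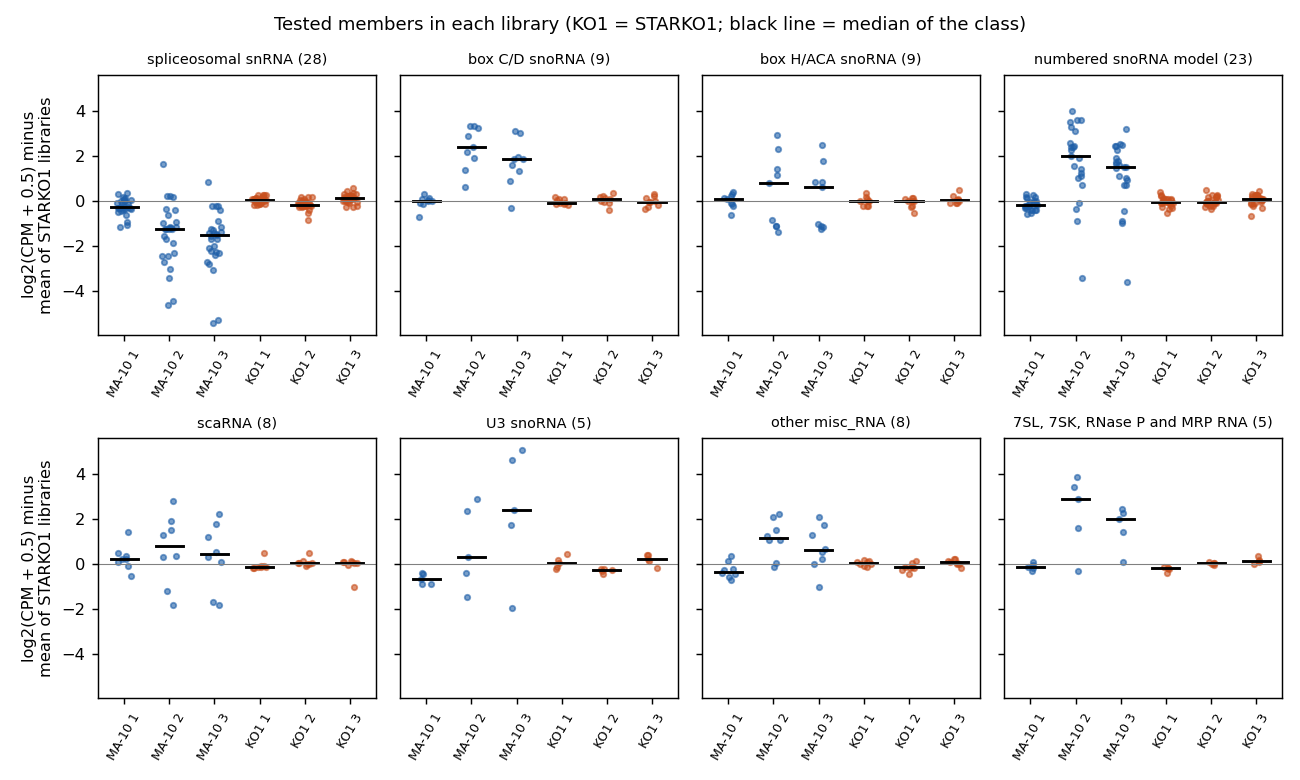
Each point is a tested small RNA gene in 1 library, as log2(CPM + 0.5) minus the mean of the 3 STARKO1 libraries, by class and with the number of genes in parentheses; black lines are class medians. In MA-10 replicates 2 and 3, most snRNA genes lie below 0 and most box C/D snoRNA genes above 0, while MA-10 replicate 1 lies near 0 in both classes.

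Spliceosomal snRNA genes were the class with higher values in STARKO1. Of 28 tested, 24 had a positive log2 fold change, with a median of 1.11 against −0.05 for all genes tested. The cell lines did not overlap for 17 that were higher and 1 that was lower, against 21.5% and 21% of all genes. These 28 include 14 U1 and 11 U2 genes, many of them identical or similar in sequence. Their values are therefore not independent of each other, and the counts of genes here are descriptions. Scaling by library size alone, which moved the median of all genes to 0.38, gave a median of 1.42 and 27 positive values. Without MA-10 replicate 1, 23 of 29 were higher and 1 was lower, with a median of 1.86, against 34.0% and 31.7% of all genes and a median of 0.06.

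The 3 genes called with all libraries were 2 copies of U1 and 1 variant of U2. Gm22317 (chr12:54738459-54738622) had estimated counts of 31.0, 19.0 and 12.3 in MA-10 and 117, 87.7 and 64.9 in STARKO1 (log2 fold change 1.61, SE 0.29, adjusted p = 0.0260, edgeR). Gm25679 (chr12:54719163-54719326), which lies nearby, had 34.0, 19.0 and 12.3 against the same 3 STARKO1 values (log2 fold change 1.56, SE 0.31, adjusted p = 0.0315, edgeR). Both transcripts are identical to Rnu1a1 over 164 bases. Gm25360 (chr1:72226240-72226430), which differs from Rnu2-10 at 4 of 191 positions, had counts of 349, 156 and 122 against 740, 495 and 597 (log2 fold change 1.09, SE 0.25, adjusted p = 0.0437, edgeR). All 3 MA-10 libraries were below all 3 STARKO1 libraries for each of these genes, replicate 1 included.

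Values of single copies are uncertain, because identical transcripts received different counts. The 7 genes with the sequence of Rnu1a1 had log2 fold changes from −1.25 to 1.61, of which 3 were positive, and 6 were positive under library size alone. Gm22068 (chr11:87426716-87426879), chosen after its values were seen, is one of them and was at 1.88, 5.52 and 2.93 CPM in MA-10 and at 1.54, 1.07 and 1.66 CPM in STARKO1, the opposite order. The 4 U2 genes with the sequence of Rnu2-10 ranged from 1.13 to 1.64, and the 4 identical U3 genes from −3.99 to −0.63. Counts that were not whole, to within 1e-06, were present for 90 of the 173 genes and for 8006 of all 14774 genes. They are thus not particular to the small RNA genes.

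Summing each family removes this division of reads between copies. U1, summed over 15 genes, was at 94.9, 41.9 and 30.8 CPM in MA-10 and at 118, 110 and 136 CPM in STARKO1, with no overlap (log2 fold change 1.12, SE 0.41, adjusted p = 0.101, edgeR). U2, summed over 12 genes, was at 328, 148 and 92.9 CPM against 416, 356 and 410 CPM (log2 fold change 1.05, SE 0.45, adjusted p = 0.134, edgeR). Replicate 1 was the highest MA-10 library for both. Without it, U1 and U2 rose by 1.83 (adjusted p = 4.55e-05) and 1.80 (adjusted p = 0.00011) on the log2 scale in edgeR. No family sum or remaining small RNA gene was called with all 6 libraries in this fit, in which 34 of 63 had an unadjusted p below 0.05 and 8.99% of all genes were called.

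The less abundant snRNAs had the same direction at a lower depth. U5, a component of the tri-snRNP, had summed counts of 8.81, 9.38 and 1 in MA-10 and 43.0, 27.2 and 45.1 in STARKO1 over 5 genes (log2 fold change 2.07, SE 0.56, adjusted p = 0.0606, edgeR), and 2.26 without MA-10 replicate 1 (adjusted p = 0.00985, edgeR). U11 RNA (Rnu11), of the minor spliceosome, had counts of 9, 5 and 5 against 15, 10 and 19 (log2 fold change 0.70, adjusted p = 0.222, edgeR). U12 RNA (Rnu12) had 0 counts in all 3 MA-10 libraries and 3, 5 and 3 in STARKO1, where a count of 0 allows up to 3 counts per library. Gm24265 and Gm24407, neighbouring snRNA models of 141 bases that were chosen after their values were seen and are 98.6% identical, were at 7.11, 0.173 and 0.880 CPM and at 3.99, 0 and 0.352 CPM in MA-10. In STARKO1 they were at 6.09, 6.73 and 7.49 CPM and at 4.06, 2.99 and 3.90 CPM, so that MA-10 replicate 1 again lay with the knockout libraries.

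Most box C/D snoRNA genes tested were lower in STARKO1 than in MA-10 replicates 2 and 3. All 9 Snord genes tested had a negative log2 fold change, with a median of −2.26, and none was called with all libraries (lowest adjusted p = 0.0573, edgeR). The cell lines did not overlap for 2 of the 9, both lower, against 21% of all genes. For all 9, MA-10 replicate 1 was nearer to the STARKO1 mean than to either other MA-10 library, against 60.4% of all genes. Without that library, 12 of 13 tested were lower and none was higher, against 31.7% and 34.0% of all genes. Snord15b was at 80.3, 665 and 572 CPM in MA-10 and 61.8, 71.5 and 63.8 CPM in STARKO1 (log2 fold change −2.74, SE 0.71, adjusted p = 0.0573, edgeR). Snord15a, from the same host gene and 72.3% identical, was at 51.0, 467 and 374 CPM against 43.1, 48.8 and 46.6 CPM (log2 fold change −2.69, SE 0.72, adjusted p = 0.0608, edgeR). For both, the lowest MA-10 library was replicate 1, just above the highest STARKO1 library. Without it they fell by 3.14 and 3.09 on the log2 scale (adjusted p = 8.33e-06 for both, edgeR).

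The shorter C/D RNAs, given here after their values were seen, had the same pattern at lower levels. Snord87, from Snhg6, was at 0.973, 11.6 and 5.37 CPM in MA-10 and 1.25, 1.06 and 1.07 CPM in STARKO1. Snord82, from the nucleolin gene Ncl, was at 0.687, 5.72 and 4.13 CPM against 0.774, 0.412 and 0.954 CPM. Snord33, from the ribosomal protein gene Rpl13a, was at 0.483, 8.79 and 3.00 CPM against 0.345, 0.748 and 0.365 CPM. In all 3, MA-10 replicate 1 lay within or beside the STARKO1 range and the other MA-10 libraries above it. Snord17, of 238 bases, was the exception in the class, at 63.0, 103 and 53.3 CPM against 60.9, 66.1 and 73.4 CPM (log2 fold change −0.13, SE 0.26, adjusted p = 0.737, edgeR), and its sign turned under upper quartile scaling (0.03) and under library size alone (0.37).

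The snoRNA genes were also sorted by their sequence, with U3 and scaRNAs left out. The 13 tested genes with the C and D box pair, of which 8 are Snord genes already counted and 5 are numbered models, were all negative, with a median log2 fold change of −2.26, and 15 of the 16 tested without MA-10 replicate 1 were lower. Of the 21 with an ACA near the 3′ end, 7 were positive and the median was −0.92, and without MA-10 replicate 1 there were 6 higher and 17 lower among 26. The 7 with neither motif had 6 negative values and a median of −1.63, and 9 of 10 were lower and 1 higher without MA-10 replicate 1. Of all genes tested without MA-10 replicate 1, 34.0% were called higher and 31.7% lower. No difference between these sets was tested. Length was read over the 95 tested small RNA genes of every class, and its part in the values was not tested. The 9 under 100 bases were all negative with a median of −2.26, and the 31 from 100 to under 150 bases had a median of −0.998. The 38 from 150 to under 250 bases had a median of 0.98, and they include 14 U1 and 11 U2 genes. The 17 longer ones, which include the 7SL, 7SK, RNase P and RNase MRP RNAs, had a median of −1.03.

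H/ACA snoRNA genes went both ways. Of 9 Snora genes tested, 4 had a positive and 5 a negative log2 fold change, with a median of −0.87 and none called with all libraries (lowest adjusted p = 0.0608, edgeR), and without MA-10 replicate 1 there were 5 higher and 6 lower of 12, against 34.0% and 31.7% of all genes. Snora16a was at 2.94, 28.6 and 20.6 CPM in MA-10 and 2.70, 3.62 and 3.52 CPM in STARKO1 (log2 fold change −2.40, SE 0.73, adjusted p = 0.0745, edgeR), and −2.82 without replicate 1 (adjusted p = 1.74e-05, edgeR). The order was the opposite for the U17 snoRNAs and for Snora62, all chosen after their values were seen.

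Snora73a and Snora73b, 96.6% identical to each other, were at 14.3, 3.72 and 4.39 CPM and at 10.3, 5.11 and 4.57 CPM in MA-10. In STARKO1 they were at 10.5, 10.7 and 10.6 CPM and at 8.17, 9.72 and 11.5 CPM. Gm26448, which is 87.8% identical to Snora73b as the printed sequences show, was at 31.4, 2.86 and 2.46 CPM in MA-10 and 33.2, 36.5 and 37.8 CPM in STARKO1 (log2 fold change 1.53, SE 0.91, adjusted p = 0.250, edgeR). In all 3 genes, MA-10 replicate 1 lay beside or above the STARKO1 libraries and replicates 2 and 3 below them. Without replicate 1, Gm26448 rose by 3.84 on the log2 scale (adjusted p = 8.33e-06, edgeR). Snora62, which lies in the same host gene as Gm26448, was at 0.458, 0.173 and 0.176 CPM against 1.16, 0.766 and 1.01 CPM (log2 fold change 1.75, SE 0.47, adjusted p = 0.0608, edgeR), with no overlap.

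U3 snoRNA, which is needed to cut the ribosomal RNA precursor, was set apart by MA-10 replicate 3. Summed over 5 genes it was at 74.6, 128 and 552 CPM in MA-10 and 105, 94.4 and 137 CPM in STARKO1 (log2 fold change −1.16, SE 0.70, adjusted p = 0.254, edgeR). MA-10 replicate 3 was above the other 5 libraries, which overlapped, and without it the log2 fold change was 0.15. Without MA-10 replicate 1 it was −1.53 (adjusted p = 0.0248, edgeR). Rnu3b3, the most abundant copy, was at 31.2, 37.6 and 168 CPM against 43.2, 43.3 and 66.1 CPM (log2 fold change −0.63, SE 0.64, adjusted p = 0.482, edgeR). Rnu3a, chosen after its values were seen and 86.6% identical to Rnu3b1, was at 16.5, 7.54 and 5.37 CPM against 20.0, 17.9 and 28.9 CPM, with replicate 3 the lowest.

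Scarna10 was the most abundant scaRNA. It was at 91.1, 682 and 463 CPM in MA-10 and 91.8, 98.8 and 100.3 CPM in STARKO1, with replicate 1 again beside the knockout (log2 fold change −2.09, SE 0.64, adjusted p = 0.0756, edgeR, and −2.47 with adjusted p = 1.6e-05 without replicate 1). Of the 8 tested scaRNAs, 7 were negative, with a median of −0.68, but under library size alone 4 were positive and the median was −0.19. Without MA-10 replicate 1, 2 of 8 were higher and 4 lower, against 34.0% and 31.7% of all genes. Scarna2, which is not within a host gene and was chosen after its values were seen, was the one with a positive value under TMM scaling, at 19.7, 6.93 and 4.93 CPM against 15.1, 18.6 and 16.5 CPM (log2 fold change 0.65, and 1.58 without replicate 1, adjusted p = 0.000152, edgeR). Gm26083, also chosen after its values were seen, had counts of 73.2, 0 and 0 in MA-10 and of 45.5, 34.0 and 6.50 in STARKO1. Its log2 fold change went from −0.07 to 7.58 without replicate 1, a fitted value against 2 libraries at 0 that is no bound. Gm26083 overlaps an exon of Snhg20, which was at 41.7, 78.5 and 111 CPM in MA-10 and 34.9, 41.4 and 44.1 CPM in STARKO1. Reads of Gm26083 and of that exon cannot be told apart, so its counts of 0 need not mean absence.

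The numbered snoRNA models and the other misc_RNA genes completed the list. Of 23 numbered models tested, 19 were negative, with a median of −1.63, and without MA-10 replicate 1 there were 2 higher and 23 lower of 27, against 34.0% and 31.7% of all genes. The most abundant, Gm25835, was at 33.1, 132 and 102 CPM in MA-10 and 33.0, 34.3 and 39.0 CPM in STARKO1 (log2 fold change −1.33, SE 0.46, adjusted p = 0.0920, edgeR), and −1.63 without replicate 1 (adjusted p = 3.59e-05, edgeR). Of the 13 other misc_RNA genes, 8 were tested and 7 of these were negative, with a median of −0.71 (−0.11 under library size alone) and none called. Without MA-10 replicate 1, 8 of 11 were lower and none was higher, against 31.7% and 34.0% of all genes. Rny3, a Y RNA that binds the Ro protein, was at 8.53, 41.7 and 20.9 CPM against 15.3, 12.9 and 13.9 CPM (log2 fold change −0.75, SE 0.51, adjusted p = 0.304, edgeR). Its groups overlapped, with replicate 1 the lowest library of all. Without replicate 1 it was −1.06 (adjusted p = 0.00559, edgeR).

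**Figure D3:**
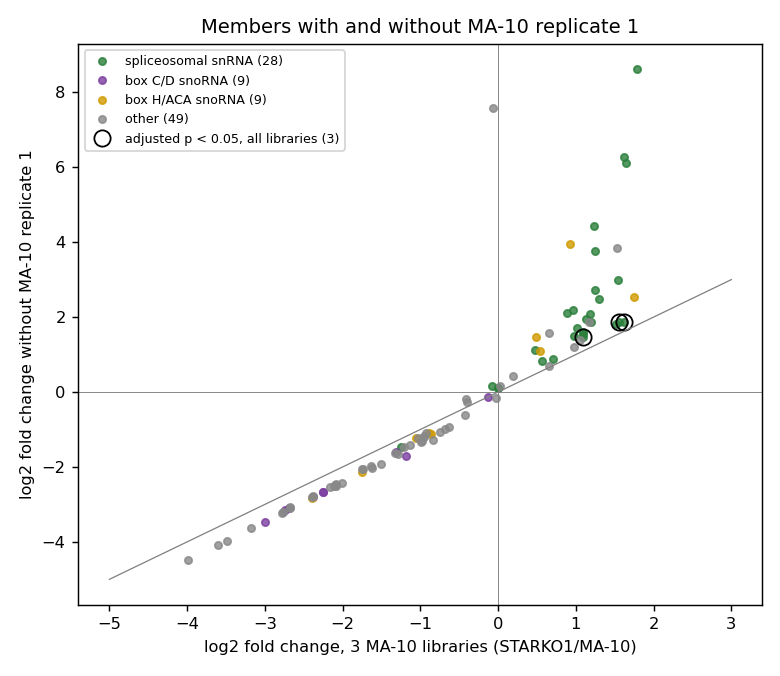
Log2 fold change (STARKO1 over MA-10) of the 95 tested small RNA genes with all libraries (x axis) and without MA-10 replicate 1 (y axis), with equality as the diagonal line. Most genes lie farther from 0 without that library, with snRNA genes (green) upward and box C/D snoRNA genes (purple) downward, and the 3 called genes are circled.

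Most snoRNAs are processed from introns, so their host genes were read alongside them. Of the 173 small RNA genes, 121 lay within a longer gene on the same strand, and 58 of these were tested, 49 of them with a host that was tested too. These 49 shared 40 host genes. Of the 40, 2 were higher and 3 lower at an adjusted p below 0.05, or 12.5%, against 9.04% of all genes. Without MA-10 replicate 1, 29 of the hosts were called, where 65.7% of all genes were called. The median log2 fold change was −0.45 for the hosts and −1.31 for the small RNAs, the small RNA had the lower value in 35 of the 49 pairs, and the signs were opposite in 21. Across the 49 pairs Pearson's r was −0.12, given as a description because pairs share libraries and 18 of the small RNAs share a host with another. By place, 23 tested genes that overlap a host exon had a median of −2.09, 35 within introns a median of −0.96, and 37 with no host gene a median of 0.70, the last group holding most of the snRNA genes.

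Named hosts show how far the small RNA and the host transcript can differ. Rps3, a ribosomal protein gene and host of Snord15a and Snord15b, was at 563, 1873 and 1307 CPM in MA-10 and 427, 470 and 438 CPM in STARKO1 (log2 fold change −1.49, SE 0.43, adjusted p = 0.0666, edgeR). Per 100 counts of Rps3 there were 14.3, 35.5 and 43.7 counts of Snord15b in MA-10 and 14.5, 15.2 and 14.6 in STARKO1. MA-10 replicates 2 and 3 had the highest ratios, and replicate 1 the lowest of all 6 libraries, just under the STARKO1 values. Without replicate 1, Rps3 fell by 1.74 on the log2 scale (adjusted p = 4.91e-05, edgeR). Snhg12, the noncoding host of Snora16a, fell by 1.34 on the log2 scale (SE 0.23, adjusted p = 0.0215, edgeR), and here MA-10 replicate 1 stayed with its group, at 11.6, 18.5 and 15.7 CPM against 6.13, 6.64 and 5.27 CPM.

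Other hosts had the opposite sign to their small RNA. Eif4a1, the translation initiation helicase and host of Gm25835, was at 462, 526 and 391 CPM in MA-10 and 705, 711 and 713 CPM in STARKO1 (log2 fold change 0.63, SE 0.20, adjusted p = 0.0806, edgeR), and 0.72 without MA-10 replicate 1 (adjusted p = 0.00239, edgeR). Ncapd2, a condensin subunit gene on which Scarna10 lies, was at 222, 94.9 and 151 CPM against 225, 243 and 227 CPM (log2 fold change 0.57, adjusted p = 0.208, edgeR). Scarna10 had 41.1, 718 and 307 counts per 100 Ncapd2 counts in MA-10 and 40.6 to 44.1 in STARKO1. Rpsa, host of Gm26448, was at 1602, 3064 and 2779 CPM against 1332, 1517 and 1454 CPM, higher in the 2 MA-10 libraries in which Gm26448 was low. Snx5, host of Snord17, was as flat as its snoRNA (log2 fold change −0.08, SE 0.15, adjusted p = 0.716, edgeR), with the sign turned to 0.07 under upper quartile scaling and 0.38 under library size alone. Tex14, which spans the U3 genes Rnu3b1 to Rnu3b4, had 1 to 4 counts per library and was not tested. Reads in shared exons cannot be told apart from the small RNA where both overlap.

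**Figure D4:**
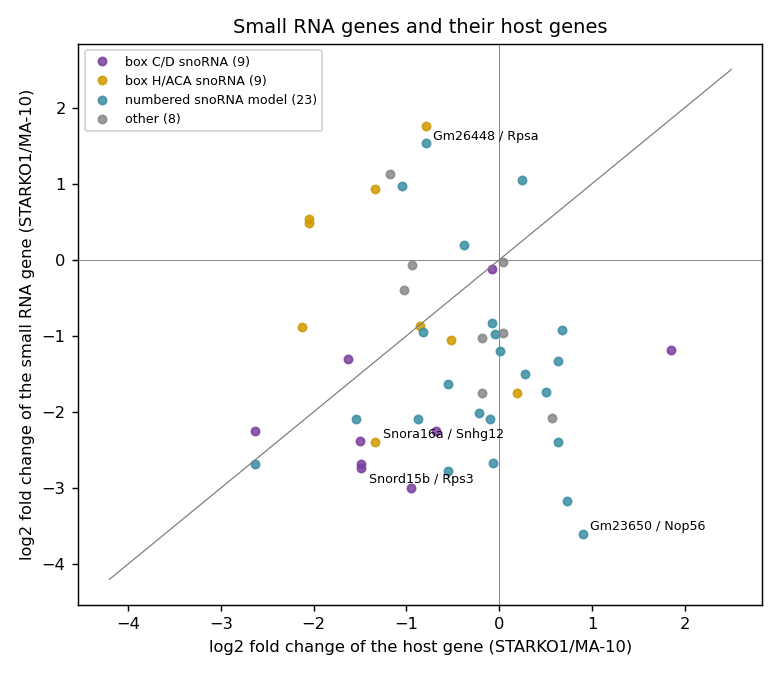
Log2 fold change (STARKO1 over MA-10) of each tested small RNA gene (y axis) against that of its tested host gene (x axis) for 49 pairs, colored by class, with equality as the diagonal line. Points lie on both sides of 0 on the x axis, and 35 of 49 lie below the diagonal.

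The genes for proteins that bind or process these RNAs went in both directions. Of 131 listed, 124 were tested and 8 passed, 6 higher and 2 lower in STARKO1, or 6.45% against 9.04% of all genes, and without MA-10 replicate 1 there were 34 higher and 61 lower, or 76.6%, against 65.7% of all genes (34.0% higher and 31.7% lower). The 7 called partner genes described here with their values kept their direction and their call without that library. Without any one of the other 5 libraries, edgeR called 0 to 3 of them. For RNase P and RNase MRP, 2 of 11 protein genes passed, in opposite directions. Pop1, their largest subunit, was at 15.2, 12.7 and 6.33 CPM in MA-10 and 71.8, 63.3 and 88.7 CPM in STARKO1 (log2 fold change 2.70, SE 0.34, adjusted p = 0.00851, edgeR). Rpp21 was at 10.4, 45.1 and 31.5 CPM against 6.40, 6.65 and 5.56 CPM (log2 fold change −2.22, SE 0.50, adjusted p = 0.0430, edgeR). Pop1 was thus higher in all 3 STARKO1 libraries while Rmrp was flat and Rpph1 was not called.

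In the signal recognition particle list, 1 of 10 tested genes passed. Srp68, which binds 7SL RNA, was at 195, 437 and 361 CPM in MA-10 and 133, 130 and 133 CPM in STARKO1 (log2 fold change −1.33, SE 0.31, adjusted p = 0.0449, edgeR). Of 8 box C/D and H/ACA snoRNP protein genes, 2 rose. Nop56, a core box C/D protein, was at 124, 155 and 114 CPM against 233, 240 and 259 CPM (log2 fold change 0.90, SE 0.19, adjusted p = 0.0355, edgeR). The other was Dkc1, the pseudouridine synthase of H/ACA particles, named because it was the only further gene of the list that passed. Nop56 is also the host of Gm23650, chosen after its values were seen, which was at 0.235, 16.7 and 4.76 CPM against 0.690, 0.598 and 0.476 CPM.

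For the snRNAs, Gemin4 of the SMN complex, which loads Sm proteins onto snRNA, was at 10.4, 9.01 and 6.77 CPM in MA-10 and 21.6, 21.7 and 22.8 CPM in STARKO1 (log2 fold change 1.33, SE 0.20, adjusted p = 0.0143, edgeR). It was the only one of 23 Sm, LSm and SMN complex genes to pass, and 18 of the 23 had a negative log2 fold change, with a median of −0.93 (−0.34 under library size alone). Ints8 and Ints7, of the Integrator complex that cuts snRNA 3′ ends, rose by 1.01 (SE 0.19, adjusted p = 0.0272, edgeR) and 0.69 (SE 0.15, adjusted p = 0.0369, edgeR) on the log2 scale, as 2 of 23 genes of snRNA transcription and processing. None of the 23 genes of RNA polymerase III and its factors, which transcribe 7SL, 7SK, RNase P and RNase MRP RNA, passed, with a median of −0.28 (0.23 under library size alone). The same held for the 7 genes of the 7SK particle and P-TEFb (median −0.03, and 0.44 under library size alone), the 4 Ro and vault protein genes tested (median 0.17, and 0.53) and the 15 snoRNP assembly genes (median −0.68, and −0.13). Without MA-10 replicate 1, where 65.7% of all genes were called, edgeR called 7 polymerase III genes higher and 11 lower. It called 1 of the 7SK list higher and 1 lower, 2 of the Ro and vault list higher, and 2 of the assembly list higher and 11 lower. Of the Sm, LSm and SMN complex genes, 3 were higher and 18 lower. Genes of snRNA transcription and processing had 12 higher and 4 lower. For the signal recognition particle there were 2 higher and 7 lower, for RNase P and RNase MRP proteins 3 and 5, and for snoRNP proteins 2 and 4.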

How the data were processed

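The authors deposited estimated counts per gene without normalization, made from total RNA libraries (Qiagen Allprep and Takara SMARTer Total RNA Stranded Pico V2 kits). The submitters' processing notes name STAR 2.6.1d, Partek and mm10, and how reads shared by similar genes were divided is not given in the sources used here. The table keeps 6 significant digits. Counts were rounded and tested on all genes with edgeR 4.0.16 in R 4.3.3 (filterByExpr, TMM, quasi-likelihood test, Benjamini-Hochberg adjustment over all 11939 genes tested, threshold 0.05). SE is the log2 fold change over the root of F. All 173 genes matched GENCODE M21 positions, which gave hosts and sequences. Totals leave counting error small for abundant RNAs (a share of all counts has a 95% Wilson half-width of at most 0.0179 points, counting error only) and large for those of few counts.

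Named genes are the 5 listed symbols, the 12 with the highest mean CPM, called genes, the most abundant of each class, their hosts, the 5 called partner genes highest and lowest in fold change, Star and Gm26917. The members and lists were chosen with earlier results of these data known. Alternatives were DESeq2 1.42.0, other scalings and filters, thinning, a replicate block, a looser threshold and leaving out each library; family sums (at least 75% identity) were added after seeing the data. On simulated counts of 11939 genes for this comparison, edgeR recovered 98% of 4-fold and 22% of 2-fold changes with 6.25% false calls. The simulation gave every gene the same spread between replicates and held no library that departs from its group. Its rates therefore need not hold for the small RNA genes. Terc and Gm24105, whose annotation combines types, were not included. Promoters were not used here.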

Additional observations from a re-analysis of the deposited data

How the results depend on the processing

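The number of small RNA genes called (3 with all libraries) was 47 with DESeq2 (11 higher, 36 lower), 0 with library size alone (40 at an unadjusted p below 0.05), 41 at an adjusted p below 0.1 (9 higher, 32 lower), 0 with family sums, and 0 to 94 on leaving out 1 library, the highest without MA-10 replicate 1. Partner protein genes (8) were 41 with DESeq2, 2 with library size alone and 0 to 95 on leaving out 1 library, again highest without MA-10 replicate 1. The other filters and scalings gave 2 to 4 and 6 to 9. With the replicate block, edgeR called 0 small RNA genes (42 at an unadjusted p below 0.05) and 1 partner gene, but same-numbered libraries did not deviate together (correlations −0.02, 0.05 and 0.02), so the numbers were not taken to pair the libraries. Library size alone moved the median log2 fold change of all genes by 0.43 and upper quartile scaling by 0.15. Signs turned for 8 of the 95 tested small RNA genes with library size alone and for 5 with upper quartile scaling; of the genes and hosts named by rule these were Snord17 (0.37 with library size alone, 0.034 with upper quartile scaling) and Snx5 (0.38 and 0.073). On leaving out 1 library, signs turned among those genes for Rmrp (from −0.10 to 0.18), Snord17 (from −0.31 to 0.20), Rnu3b3 (from −0.97 to 0.56) and Gm26917 (from −0.018 without MA-10 replicate 2 to 1.79 without MA-10 replicate 1). The difference in the share of counts kept its sign in every alternative, from −11.0 to −2.91 points for all small RNA genes and from −2.23 to −0.82 without 7SL RNA (−1.46 with 7SL RNA left out of both and Gm26917 out of the total, −0.016 also without 7SK RNA and Rpph1). The cause of these changes was not tested. U5, U11 and U12 had under 50 summed counts per library, so their values carry the largest counting error of the families.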
